A study of Mus musculus with 18 samples.

Results

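Adult sinusoidal-side endothelial cells of mouse bone marrow were chosen from single-cell data by their own RNA. A cell of the adult stromal library was a member if it held 2 or more UMIs (unique molecular identifiers, each counted as 1 captured RNA molecule) over Cdh5 and Pecam1, a pair of endothelial junction genes, and more UMIs of Stab1, Stab2 and Flt4 together than of Sox17, Gja4, Gja5 and Bmx together. By this rule 263 of 6267 adult stromal cells were members, out of 56201 cells in all libraries. The same cutoff on Cdh5 and Pecam1 with the opposite balance gave 220 arterial-side cells, and 180 cells were tied and are called undecided. The remaining 5604 adult stromal cells, with fewer than 2 UMIs of Cdh5 and Pecam1, are called the rest.

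Sinusoidal endothelial cells line the wide, thin-walled veins through which blood leaves the marrow. They carry scavenger receptors that clear macromolecules from the blood, they form a fenestrated barrier that mature blood cells cross, and they release clotting factors and signals that act on neighbouring hematopoietic cells. Arterial and arteriolar endothelial cells line the supplying vessels and are known for Notch signalling, gap-junction connexins and tight barriers.

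The study took bone marrow of C57B6/J mice from adults, from newborns (P0) and from fetuses of E18.5 and E16.5, and read RNA and antibody tags from the same cells. The stromal libraries held sorted CD45-Ter119- cells, those lacking the pan-leukocyte and the erythroid surface antigens, from crushed, collagenase-digested bone. Per the methods, adult cells came from tibias, femurs, pelvis and spine, with lysis of red cells. Fetal cells came from the skeleton without the head, and without that lysis. Hematopoietic progenitor libraries were made beside the stromal ones. Each stage had 1 stromal RNA library from several pooled mice, so there was no replicate of a stage and no test between groups, and the intervals given are 95% intervals for counting error only.

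The members held 2523414 UMIs, with a median of 6951 per cell (840 to 45498), against 5524.5 in arterial-side cells, 4679 in undecided cells and 12395 in the rest. Levels are given as CPM, the UMIs of a gene summed over the cells of a group and scaled to a total of 1000000 UMIs. A level is compared between groups of cells, not between genes. Of the adult stromal cell barcodes, 84 also occurred in another RNA library, and 4 of those were members.

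The rule genes are described first, as values that chose the members. Stab2 (chr10:86841194-87008038, mm10), a receptor for hyaluronan and other ligands, reached 355 CPM in members (332 to 379) and 2.29 CPM in arterial-side cells, and 142 of 263 members held at least 1 UMI of it. Stab1 (chr14:31139017-31168651), its scavenger relative, was at 418 CPM, and Flt4 (chr11:49609679-49652739), the receptor for VEGF-C, was at 237 CPM. The members had a median of 7 UMIs over these 3 genes, with a lowest value of 1 and a highest of 61, and a median of 0 over the 4 arterial genes. Sox17, an arterial transcription factor, had a UMI in 73 members, while the connexin genes Gja4 and Gja5 had a UMI in 9 and 1.

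The members were not uniform under the deposited clusters. The deposited code SECs held 177 members (67.3%, 61.3 to 72.9, exact binomial interval), the code AECs held 76 (28.9%, 23.5 to 34.8), and 10 had stromal codes. Seen from the clusters, 91.2% of the 194 cells coded SECs were members, while the 400 cells coded AECs were 76 members, 198 arterial-side cells, 116 undecided cells and 10 cells of the rest. The difference between the sinusoidal and the arterial sum, called the margin, separated the codes. At a margin of 1 there were 66 members, 51 of them coded AECs and 12 coded SECs. At a margin of 6 or more there were 139 members, 132 of them coded SECs.

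**Figure D1:**
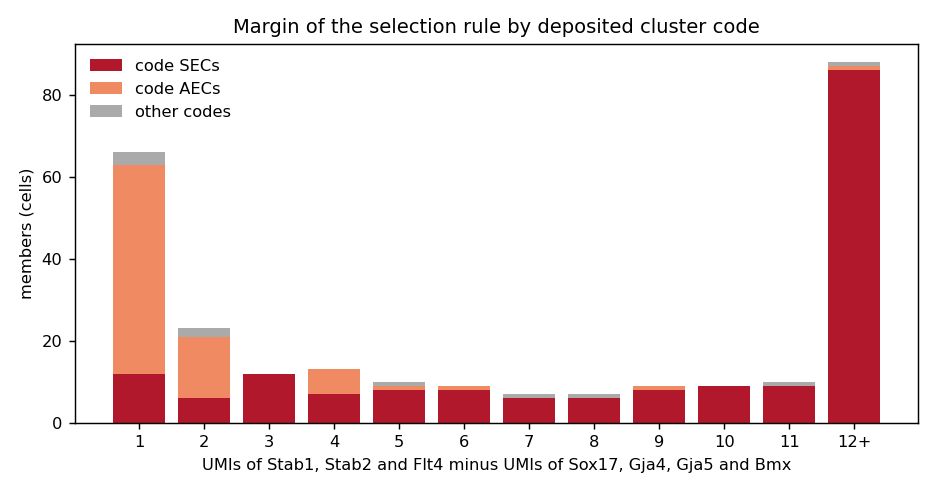
Number of members (vertical axis, cells) by margin, the UMIs of Stab1, Stab2 and Flt4 minus those of the 4 arterial genes (horizontal axis, last bar 12 or more), coloured by deposited cluster code. The 66 members at a margin of 1 are mostly coded AECs, and the 139 members at 6 or more are almost all coded SECs.

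Some genes outside the rule differed along the margin. Mrc1, the mannose receptor, was at 44.7 CPM in the 66 members with a margin of 1 (27.3 to 69.0), at 57.7 CPM in the 58 with a margin of 2 to 5 (38.0 to 83.9), and at 420 CPM in the 139 with a margin of 6 or more (389 to 453). Tfpi, which inhibits the tissue factor pathway of clotting, was at 138, 303 and 1364 CPM in the same order. Cav1, the coat protein of caveolae, ran the other way at 1090, 506 and 116 CPM. Emcn, the endothelial sialomucin endomucin, had no such order, at 777, 1032 and 716 CPM. Depth and stromal transcripts also differed along the margin, with median UMIs of 4566, 5994 and 8004 per cell and the matrix gene Dcn at 1275, 2055 and 6450 CPM. The cartilage collagen gene Col2a1 ran the other way at 6984, 6624 and 2127 CPM, and their part in these differences was not tested. Just outside the threshold, the 180 undecided cells had 3.39 CPM of Mrc1, 25.1 CPM of Tfpi and 714 CPM of Cav1. Of those tied cells, 25 held UMIs on both sides and 155 held none on either side. At the other threshold, 2 members had exactly 2 UMIs of Cdh5 and Pecam1, and 4 cells with 1 UMI and a higher sinusoidal sum were left outside.

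The endothelial identity of the members was checked on 20 pan-endothelial genes that the rule did not use. Summed, they reached 9156 CPM in members, 9775 CPM in arterial-side cells, 4858 CPM in undecided cells and 167 CPM in the rest. Kdr, the main VEGF receptor, was at 825 CPM in members and 0.801 CPM in the rest. Emcn was at 785 CPM in members (751 to 821), 534 CPM in arterial-side cells and 0.906 CPM in the rest. The defining sinusoidal gene Stab2 was at 498 CPM in the members coded SECs, with a UMI in 136 of 177 cells. In those coded AECs it was at 25.9 CPM, with a UMI in 3 of 76 cells, so the sinusoidal label had little of this marker behind it there.

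Leukocyte markers were near 0 in the members, and erythroid transcripts were present at a low level. Ptprc, which encodes CD45, had no UMI in any of them, the 5 pan-hematopoietic genes summed to 1.98 CPM, and the macrophage complement genes C1qa, C1qb and C1qc and the receptor Csf1r were also at 0. In the rest, 2 cells held a Ptprc UMI. The paper's methods state that blood cells were taken out of its stromal objects as contaminants. Together with the CD45- sort, this may have set the low leukocyte values beforehand, so they are no separate check. The macrophage list of 9 genes, 4 of them with a UMI in members, summed to 12.3 CPM, of which Cd68 gave 10.7, against 11.4 CPM in arterial-side cells and 10.0 CPM in the rest. Megakaryocyte genes summed to 33.3 CPM, with Pf4 at 19.4 CPM. The 6 erythroid genes, mostly globins, summed to 107 CPM in members (94.6 to 121), 108 CPM in arterial-side cells and 180 CPM in the rest, and 140 members held at least 1 such UMI.

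Transcripts of mesenchymal cells were found in most members, at 1 UMI in the median cell. At least 1 UMI of the 5 mesenchymal genes was held by 186 of 263 members, and Col2a1 had a UMI in 219. The 5 genes summed to 6116 CPM in members, 7423 CPM in arterial-side cells and 18571 CPM in the rest. The members with 5 or more such UMIs, called mixed cells, were 52 of 263. They were 32 of 177 coded SECs, 10 of 76 coded AECs and all 10 with stromal codes. Mixed cells were also 26 of 220 arterial-side cells and 87.9% of the rest. In every group a cell with 3 or more pan-hematopoietic UMIs was called mixed too, but 0 members had so many. A deeper cell passes these cutoffs more easily, and the shares of mixed cells were not matched for depth. Dcn, which encodes decorin, was at 4717 CPM in all members and at 61.2 CPM in the 211 members without those cells. Col1a1 was at 1300 and 39.9 CPM, and the mesenchymal sum was at 6116 and 132 CPM. The 10 members with stromal codes had a median of 24770 UMIs, and the 3 cartilage genes summed to 28094 CPM in them and to 26740 CPM in the rest. Levels of listed genes were recomputed without mixed cells, some of those that moved by more than 1.5 times are given with the results, and the part of free RNA or of several cells under 1 barcode was not tested.

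Against the arterial-side cells, 229 of 3584 genes were at least 2-fold higher in members, which is 6.39% of those with 50 counts and 50 CPM in the members, and 162 of 3522 were at least 2-fold lower (4.6%). The rule used this contrast, so the values are descriptions. The median over the genes in either set was -0.01 on the log2 scale. Without the 52 mixed members and the like arterial-side cells the counts were 262 and 223.

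Endocytic and lysosomal genes lay toward the sinusoidal side. Of 17 such genes that could be compared, 10 were at least 2-fold higher in members and 0 lower, with a median log2 ratio of 1.21. Without mixed cells 10 of 15 were higher, 9 of them among the former 10. The one lost was Lrp1, an endocytic receptor, which went from 146 and 72.6 CPM to 8.65 and 10.5 CPM, low levels from which no order is read. Mrc1 (chr2:14229414-14332023) had 723 UMIs in members (287 CPM, 266 to 308), spread over 146 cells, and 3 UMIs in arterial-side cells (1.72 CPM), a ratio of 167 with an interval of 56.9 to 812. Selenop, the secreted selenium carrier, was at 2203 and 372 CPM, a ratio of 5.92 (5.45 to 6.43). The lysosomal proteases showed smaller ratios: Lgmn (legumain) was at 501 and 114 CPM, Ctsl (cathepsin L) at 1483 and 492 CPM, and Ctsb at 887 and 380 CPM. The adaptors Dab2 and Ap1b1, which sort cargo in coated vesicles, were 2.91 and 4.21 times as high in members. Lamp1, a lysosomal membrane protein, did not separate the groups (451 and 461 CPM), and Cd36, a fatty acid receptor, was lower in members (339 and 525 CPM).

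Of the 12 sinusoidal genes listed beyond the rule, 6 could be compared and 5 were at least 2-fold higher in members. Dnase1l3, a secreted nuclease, had 315 UMIs in 96 members (125 CPM) and 1 UMI in arterial-side cells, a ratio of 218 with an interval of 38.9 to 8650. Gpr182, a scavenging chemokine receptor, was at 136 and 8.00 CPM. The venous transcription factor gene Nr2f2 was at 267 and 73.8 CPM, a ratio of 3.62 (3.00 to 4.41), and Maf was at 194 and 30.9 CPM. Plvap, which forms the diaphragms of fenestrae and caveolae, was high on both sides, at 1533 and 1126 CPM. Gata4 and Clec4g, which mark liver sinusoids, had no UMI in the members, and Oit3 was at 8.72 CPM.

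Clotting genes differed one by one. Tfpi (chr2:84432855-84476775) was at 950 CPM in members (912 to 989) and 50.3 CPM in arterial-side cells, a ratio of 18.9 (15.3 to 23.6), and was found in 194 members. F8 (chrX:75170344-75382738), coagulation factor VIII, was at 195 and 12.0 CPM, a ratio of 16.2 (10.5 to 26.5). Vwf, the carrier of factor VIII, was at 88.4 and 124.6 CPM, and within the members it was at 6.88 CPM in those coded SECs and 389 CPM in those coded AECs. Edn1, the vasoconstrictor endothelin 1, was at 25.8 and 191 CPM. Of 13 genes of clotting and vessel tone that could be compared, 3 were at least 2-fold higher in members and 1 lower.

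Among adhesion and trafficking genes, 7 of 14 were at least 2-fold higher in members and 1 lower. The 7 include Ccl21a, at 137 and 2.29 CPM, whose UMIs lay almost wholly in 4 members and which was at 0.399 CPM in the others. Ackr1, a decoy receptor for chemokines, was at 244.5 and 35.4 CPM. Vcam1, which binds the integrin VLA-4 of blood cells, was at 299 and 74.9 CPM, and Icam1 at 383 and 125 CPM. The selectin genes Selp and Sele, which serve rolling, were at 158 and 42.9 CPM and at 55.1 and 6.86 CPM. Jam2, a junctional adhesion molecule, was lower in members at 104 and 257 CPM.

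**Figure D2:**
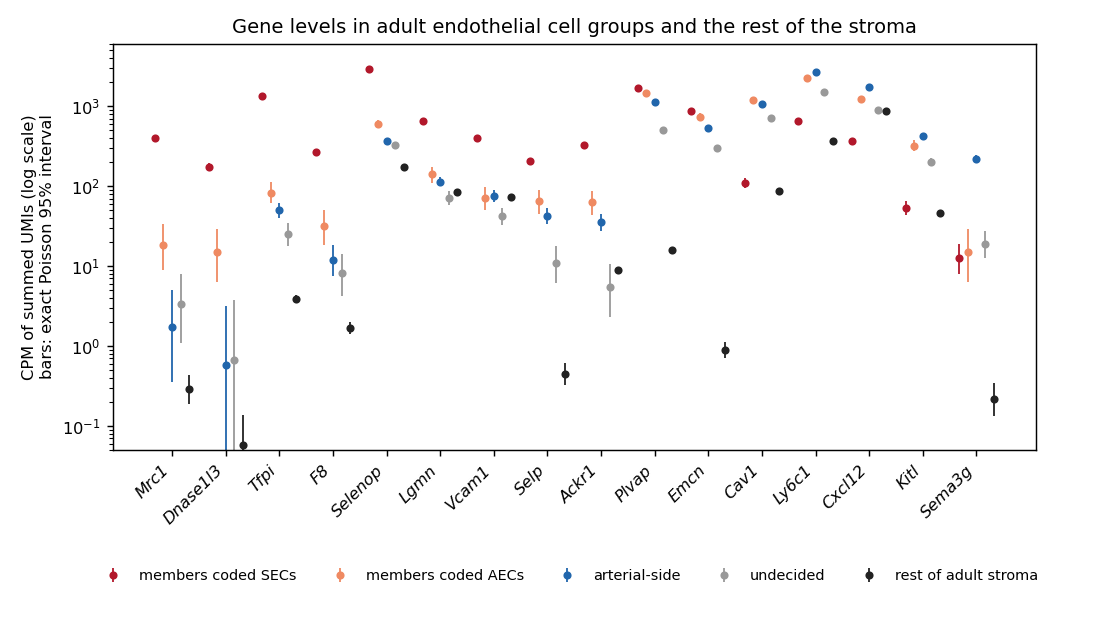
Level of 16 genes (vertical axis, CPM of summed UMIs on a log scale) in members coded SECs, members coded AECs, arterial-side cells, undecided cells and the rest of the adult stroma, with exact Poisson 95% intervals. From Mrc1 to Ackr1 the SECs-coded members stand highest, while Cav1, Ly6c1, Cxcl12 and Kitl are lower in them than in AECs-coded members and arterial-side cells.

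Of 11 hematopoietic niche factors that could be compared, 3 were at least 2-fold higher in members and 4 lower, with a median log2 ratio of -0.82. The lower ones were Cxcl12, Kitl, Jag1 and Jag2, and the higher ones Spp1, Ptn and Igf1. Cxcl12, the chemokine that retains stem cells, was at 525 CPM in members (497 to 554), 1739 CPM in arterial-side cells and 878 CPM in the rest. Leaving out mixed cells takes 4926 of the 5604 cells of the rest, by their mesenchymal genes. Without mixed cells Cxcl12 was at 473 CPM in members and at least 2-fold higher there than in what remained of the rest. That change goes with which stromal cells were left, so no order against the stroma is read from it. Kitl, the stem cell factor gene, was at 110 and 424 CPM in the endothelial groups and 45.7 CPM in the rest. Within the members, those coded AECs had 1231 CPM of Cxcl12 and 322 CPM of Kitl, and those coded SECs had 362 and 53.9 CPM. Without mixed cells the SECs-coded members had 114 CPM of Cxcl12. The Notch ligand genes Jag1 and Jag2 were lower in members, at 41.6 and 92.1 CPM and at 18.2 and 137 CPM. Without mixed cells Jag1 was at 51.9 and 99.5 CPM, under 2-fold. Spp1 (osteopontin) was at 1258 and 346 CPM, but at 2522 CPM in the rest, and at 849 and 37.2 CPM in the endothelial groups without mixed cells. Without mixed cells Spp1 was also at least 2-fold higher in members than in what remained of the rest, and no order is read there either. Ptn, the growth factor pleiotrophin, was at 75.3 and 21.2 CPM. Igf1, insulin-like growth factor 1, was at 92.3 and 42.3 CPM. Without mixed cells it was at 12.6 CPM in members and 21.8 CPM in arterial-side cells, so that it was no longer higher in members. Thpo, the thrombopoietin gene, had 1 UMI in the members.

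Of the arterial genes beyond the rule, 9 of 11 that could be compared were at least 2-fold lower in members and 0 higher. Sema3g, a secreted semaphorin, was at 12.7 CPM in members and 219 CPM in arterial-side cells, Vegfc at 15.5 and 136 CPM, and the elastic fibre gene Fbln5 at 54.3 and 400 CPM. Podxl, a sialomucin of the luminal surface, was at 135 and 549 CPM, and Efnb2, the arterial ephrin, at 62.2 and 218 CPM. Ly6c1 and Ly6a, which encode Ly6 surface antigens, were at 999 and 2680 CPM and at 972 and 2492 CPM. The flow-responsive factor gene Klf2 was at 617 and 1290 CPM.

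Genes shared by all vessels lay close together. Of 19 pan-endothelial genes, 0 passed 2-fold either way against the arterial side. Flt1, the decoy VEGF receptor, was at 705 and 827 CPM, Tek, the angiopoietin receptor, at 194 and 176 CPM, and Eng, a co-receptor for BMP9, at 900 and 664 CPM. Of 11 genes of TGF-beta and BMP signalling, 1 was at least 2-fold higher, Tgfbr3 at 160 and 70.9 CPM. Basement membrane genes were also near each other, with Col4a1 at 1325 and 1742 CPM. In that list Nid1 was higher at 350 and 106 CPM and Col18a1 lower at 116 and 271 CPM. In the antigen presentation list 0 of 6 passed 2-fold, with H2-K1 at 825 and 1110 CPM.

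**Figure D3:**
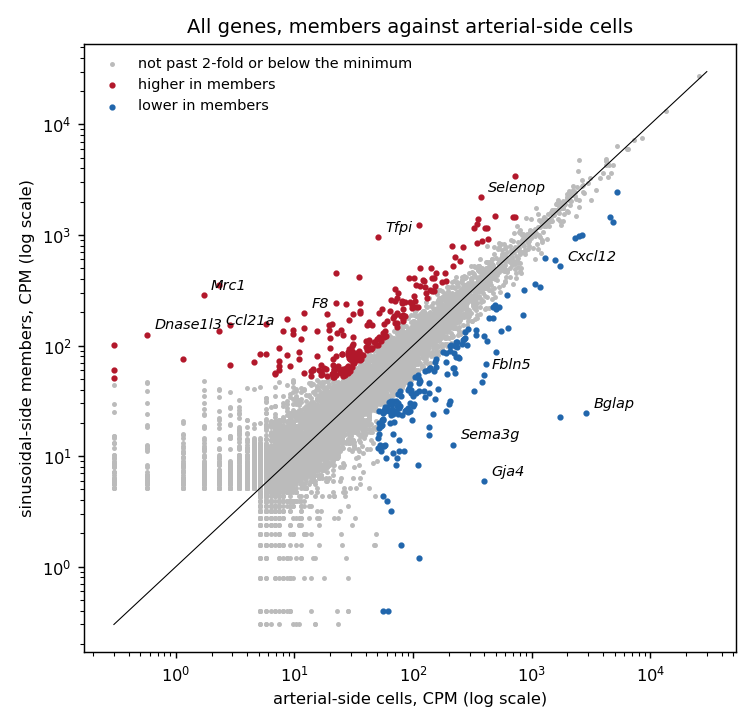
Each point is a gene, with its CPM in 220 arterial-side cells (horizontal axis) and in 263 members (vertical axis), both on log scales, values under 0.3 drawn at 0.3. Red points are the 229 genes at least 2-fold higher in members and blue points the 162 lower, and the line marks equal levels.

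By size of ratio, with counts under 3 in the lower group set to 3, the 15 leading genes on the members' side were Mrc1, Dnase1l3, Ccl21a, Lipg, Ubd, Mmrn1, Igfbp2, Il13ra2, Clca3a1, Serpina3g, Adamts5, Gpm6a, Tfpi, Gpr182 and F8. Lipg, endothelial lipase, had 256 UMIs in 87 members and 0 in arterial-side cells, which makes it at least 59.1-fold higher against a floor of 3 counts. Adamts5, an aggrecan-cleaving protease, was at 454 and 22.3 CPM and at 448 and 11.3 CPM without mixed cells. Gpm6a, a membrane glycoprotein, was at 172 and 8.58 CPM. On the arterial side the first places went to genes held largely by single cells: 88.9% of the 5021 Bglap UMIs of the arterial-side cells lay in 1 cell, as did 74.2% of Bglap2 and 73.0% of Car3. Past these came Gkn3, Nebl, Egfl8, Sema3g, Car7, Ptprr, St8sia6, Vegfc, Ssu2, Stmn2, Atp2a3 and Hey1. Stmn2, a tubulin-binding protein, was at 46.8 CPM in members and 380 CPM in arterial-side cells.

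The leading place of Ccl21a, a chemokine of lymphatic vessels and lymphoid stroma, rested on few cells. Of its 345 UMIs in members, 344 lay in 4 cells, all coded AECs, which held 26, 38, 125 and 155 of them. The same 4 cells held 88.5% of the members' UMIs of Lyve1, the hyaluronan receptor of lymphatics, 60.9% of Reln and 20.6% of Mmrn1, and 0 of Stab2. They held 11 UMIs of Prox1, the lymphatic master factor, of 56 in all members. In the other 259 members Lyve1 was at 3.99 CPM, and Mmrn1 stayed at 59.9 CPM. Without the 4 cells the counts against the arterial side were 230 higher and 165 lower.

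The members coded SECs and AECs were compared with each other as a description, since the clusters were made from the RNA of the same cells. Here 396 of 3620 genes were at least 2-fold higher in SECs-coded members (10.9%) and 162 of 1925 in AECs-coded members (8.42%). Stromal transcripts differed between the codes in both directions. The 4 fibroblast genes summed to 7295 CPM in SECs-coded and 2782 CPM in AECs-coded members, with 3 of 3 that could be compared at least 2-fold higher in the former. The 5 mesenchymal genes summed to 7016 and 3605 CPM. The other stromal lists had the opposite order. Chondrocyte genes were at 1164 and 5075 CPM, pericyte and smooth muscle genes at 244 and 816 CPM, and osteolineage genes at 4242 and 5551 CPM. Of the pericyte and smooth muscle genes, Rgs5 was at 296 CPM in AECs-coded members, with 93.1% of its UMIs in 2 of the 76 cells. Without mixed cells the osteolineage genes Alpl and Ibsp were no longer called lower in SECs-coded members, and Spp1 was called higher. CAR stroma genes were at 622 and 1694 CPM. That list includes Cxcl12 and Kitl, which were at 1739 and 424 CPM in arterial-side cells, so its sum is not stromal transcripts alone. Of the 15 genes with the largest ratios on the SECs side, 5 were Angptl7, Mfap5, Apod, Aspn and Dpt, found in 12 to 17 cells each, and 72.8% of the Angptl7 UMIs lay in 1 cell. Without mixed cells the fibroblast sums were 108 and 116 CPM and the mesenchymal sums 124.5 and 153 CPM. Mixed cells are defined by the mesenchymal list, which shares Dcn and Pdgfra with the fibroblast list. Both sums therefore fall by construction, and no order is read from them. Without mixed cells Mfap5 and Apod were each at 1.78 CPM in SECs-coded members, and the counts of genes past 2-fold were 513 and 161. The genes named next moved by less than 1.5 times without mixed cells. Mrc1 was at 405 and 18.5 CPM, Tfpi at 1328 and 83.3 CPM, and Vcam1 at 403 and 70.3 CPM. Fabp5, a fatty acid binding protein, was at 54.4 CPM in SECs-coded and 664 CPM in AECs-coded members, Cd36 at 210 and 853 CPM, and the water channel gene Aqp1 at 475 and 1723 CPM. Tcf15, a transcription factor of capillary endothelium, was at 11.5 and 304 CPM. For these genes the AECs-coded members lay at or above the arterial-side cells, where Fabp5 was at 285 CPM, Cd36 at 525 CPM, Aqp1 at 940 CPM and Tcf15 at 244 CPM. For the arterial genes Sema3g and Vegfc they did not, with 14.8 and 18.5 CPM.

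To compare shares of cells at 1 depth, each cell was thinned to 1000 UMIs, which left out 1 member, 1 arterial-side cell and 25 cells of the rest. Mrc1 was then found in 31.6% of SECs-coded members (24.9 to 39.0), 0 of 75 AECs-coded members (interval up to 4.80%), 0 of 219 arterial-side cells and 0.0179% of the rest. Before thinning these shares were 79.1%, 3.95%, 0.909% and 0.375%, at median depths of 7324, 4800, 5524.5 and 12395 UMIs. The rest, chosen only for few UMIs of Cdh5 and Pecam1, are stromal cells with transcripts of their own. They are set beside the members for comparison and are no measure of free RNA. Tfpi was found in 61.6% of SECs-coded members after thinning, 8.00% of AECs-coded members, 4.57% of arterial-side cells and 0.627% of the rest. Cav1 was in 7.91%, 70.7%, 60.7% and 9.84% of the same groups. Before thinning, 45.8% of the rest held a Cav1 UMI, so the share in the rest is not read as a level of free RNA.

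Against the rest of the stroma, 921 of 3584 genes were at least 2-fold higher in members (25.7%). All 19 pan-endothelial genes that could be compared were among them, as were 13 of 13 adhesion genes, Ccl21a included, and 12 of 17 endocytic and lysosomal genes, with 2 lower, Lrp1 and Colec12. Outside the lists the leading genes included Fam167b, found in 199 members (405 CPM, and 0.104 CPM in the rest), Gimap4 and Gimap1, small GTPases (180 and 96.7 CPM), and Btnl9 (175 CPM).

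Antibody tags gave a readout apart from the RNA, although CD31 is the product of the rule gene Pecam1. Of 29 antibodies, 4 were above 0 in at least 94.3% of adult stromal cells and 20 were at 0 in all. Those 20 may not have been part of the panel of this library, so they are not read as negative. CD31 counts had a median of 99 in members (lowest 3, highest 2083), 183.5 in arterial-side cells and 4 in the rest, so that members stood far above the rest and overlapped the arterial side. Sca-1 (antibody Ly6AE), the product of Ly6a, had a median of 44 counts in members (7 to 4165), 59.5 in arterial-side cells and 19 in the rest. Within the members the SECs-coded cells were lower than the AECs-coded cells for both, with 79 and 225 counts of CD31 and 37 and 67 of Sca-1, the same order as Ly6a RNA (716 and 1854 CPM). For CD140a, a marker of mesenchymal cells, the medians were 4 in members, arterial-side cells and the rest. CD73 had medians of 20, 17.5 and 21.

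**Figure D4:**
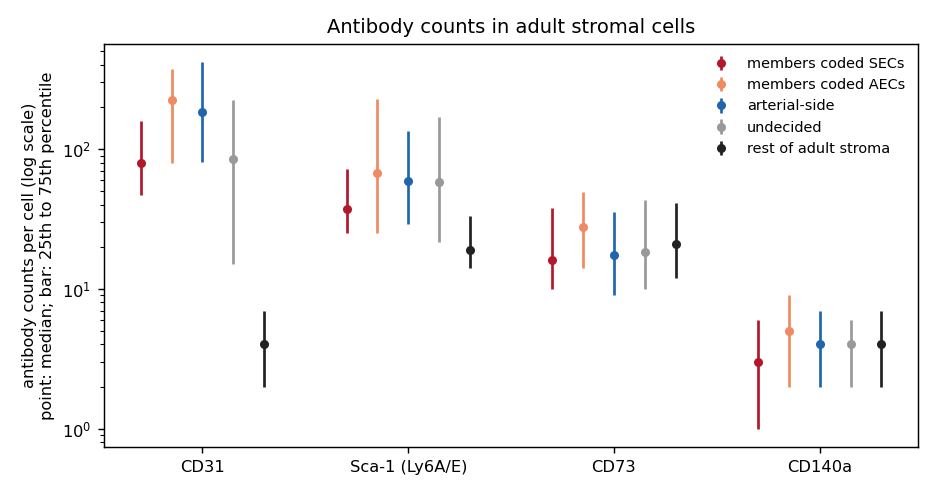
Antibody counts per cell (vertical axis, log scale) for the 4 antibodies seen in most cells, by group of adult stromal cells. Points are medians and bars run from the 25th to the 75th percentile. CD31 is high in every endothelial group and low in the rest, and Sca-1 is lower in SECs-coded than in AECs-coded members.

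The same rule was then applied to the younger stromal libraries. It found 54 of 14084 cells at P0 (0.383%), 24 of 6642 at E18.5 (0.361%) and 24 of 8226 at E16.5 (0.292%), against 4.20% in the adult (3.71 to 4.72). Among cells with 2 or more UMIs of Cdh5 and Pecam1 the sinusoidal side made up 39.7% in the adult (35.9 to 43.5), 21.2% at P0 (16.3 to 26.7), 21.4% at E18.5 and 27.9% at E16.5. Stage and library cannot be told apart here. The first of these shares also depends on how many other stromal cells each library holds after filtering and any removal of blood cells.

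The P0 cells met the rule with less of the sinusoidal genes. Stab2 was at 27.6 CPM (48.8 CPM without mixed cells) with a UMI in 8 of 54 cells, Stab1 at 117 CPM and Flt4 at 104 CPM. A margin of 2 or more was reached by 28 of the 54 P0 cells and by 197 of the 263 adult members. Median depth was 12614.5 UMIs at P0 and 6951 in the adult members. The paper could not separate sinusoidal from arterial endothelial cells at E16.5 to P0, and says that few such cells were profiled. Of 3584 genes with 50 counts and 50 CPM in the adult members, 712 were at least 2-fold higher there than at P0 (19.9%), and of 2360 such genes at P0, 177 were higher at P0 (7.5%). Mitochondrial and ribosomal protein genes and Gm42418 took 29.5% of the UMIs at P0 and 16.0% in the adult members, and the median gene stood 0.34 higher in the adult on the log2 scale. With these genes out of the total that median was 0.08 and the counts were 583 and 311, so that the share of higher genes among those past 2-fold went from 80.1% to 65.2%. Without mixed cells, which were 38.9% of the P0 cells, the counts were 859 and 124, with 33 cells left at P0. Fewer UMIs are left there, so that fewer genes at P0 can reach 50 counts.

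Of the adult-higher genes, 204 (28.7%) were also at least 2-fold higher in the adult rest than in the P0 rest and 296 (41.6%) in the adult than in the 99 P0 arterial-side cells, where 15.8% and 16% of all genes passed. For 169 of the 712 the level in the adult rest exceeded that in the members. Of the 15 leading genes, 9 were of that kind. Cilp, Ibsp, Clu, Myoc, Fxyd2, Sod3, Angptl7, Gpx3 and Cilp2 were found in 15 to 98 members and were higher in the rest. Cilp was at 1155 CPM in members but at 13.3 CPM without the 52 mixed cells.

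The other leading genes were lower in the rest than in members, and were Enpp6, AW112010, Kcnj8, Ubd, Rgs4 and Dnase1l3. Enpp6, a choline phosphodiesterase, had 620 UMIs in 170 members (246 CPM) and 2 UMIs at P0, a ratio of 97.8 with an interval of 27.0 to 810. Kcnj8, a subunit of an ATP-sensitive potassium channel, was at 195 and 5.02 CPM.

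Scavenging genes were higher in the adult in 11 of 17 cases, with 0 lower, where 19.9% of all genes were higher. In the arterial-side cells 4 of 13 were higher in the adult and 0 lower, where 16% of all genes were higher. Without mixed cells 9 of 15 were higher on the sinusoidal side, 8 of them among the former 11. Without those cells Lrp1 was at 8.65 CPM in the adult and 2.71 CPM at P0, Colec12 at 21.3 and 19.0 CPM, and Cltc at 328 and 168 CPM, so these 3 no longer passed. Mrc1 was at 287 CPM in the adult and 21.3 CPM at P0, a ratio of 13.4 (8.32 to 23.2), and Selenop at 2203 and 245 CPM, a ratio of 8.99 (7.80 to 10.4). The protease Lgmn was at 501 and 47.7 CPM. Without mixed cells the P0 levels were 40.6 CPM for Mrc1, 371 CPM for Selenop and 73.1 CPM for Lgmn, against 331, 2806 and 622 CPM in the adult. Genes of clotting and vessel tone were higher in 9 of 11 cases with 0 lower, and in the arterial-side cells in 4 of 10 with 0 lower. Without mixed cells 7 of 10 were higher on the sinusoidal side, 6 of them among the former 9. Those lost were Ptgis (118 and 38.9 CPM, then 3.33 and 2.71 CPM), Plat (31.3 and 29.8 CPM without mixed cells) and Vwf (109 and 70.4 CPM). Tfpi had a ratio of 10.4 (8.21 to 13.3) and F8 of 11.1 (6.55 to 20.4). In the P0 arterial-side cells Tfpi was at 73.0 CPM, against 50.3 CPM in the adult ones.

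Of adhesion genes for blood cells, 1 of 10 was higher in the adult arterial-side cells than in those at P0, and 1 was lower. On the sinusoidal side 6 of 13 were higher in the adult and 1 lower. Selp was at 158 CPM in the adult and 8.79 CPM at P0, Ackr1 at 245 and 15.1 CPM, and Vcam1 at 299 and 76.6 CPM. Without mixed cells Vcam1 was at 344 and 149 CPM and Ackr1 was at 29.8 CPM at P0. The lower gene was Ccl21a, with 544 CPM at P0, where 2 of the 54 cells held 10 or more UMIs of it. H2-K1, a class I antigen-presenting molecule, was at 825 and 41.4 CPM, with 1110 and 97.9 CPM in arterial-side cells of the 2 ages. Cxcl12 was at 525 and 50.2 CPM in the sinusoidal-side cells, and at 1739 and 1063 CPM in arterial-side cells. Within the adult members it was at 1166 CPM at a margin of 1, 432 CPM at 2 to 5 and 373 CPM at 6 or more. The part of a different mix of cells in this difference between the ages was not tested.

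**Figure D5:**
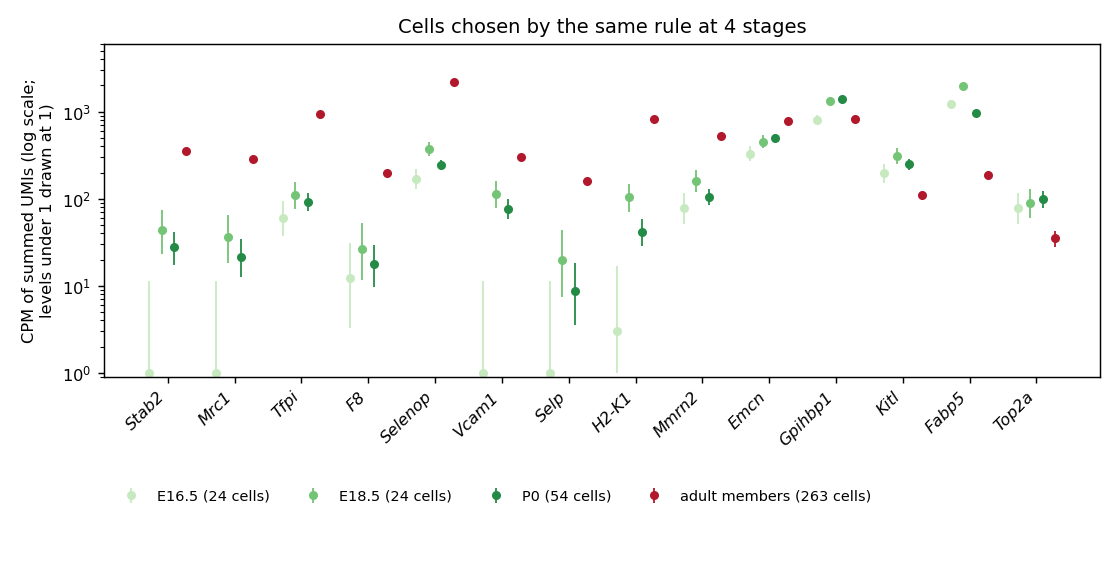
Level of 14 genes (vertical axis, CPM on a log scale, with exact Poisson 95% intervals) in adult members and in cells chosen by the same rule at the younger stages, with levels under 1 drawn at 1 and the number of cells in the legend. From Stab2 to Mmrn2 the adult cells stand above the 3 younger groups, while Gpihbp1, Kitl, Fabp5 and Top2a are lower in the adult than at P0.

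Fewer listed genes were higher at P0. Fabp5 was at 978 CPM at P0 and 189 CPM in the adult, Cav1 at 1440 and 361 CPM, and Kitl at 247 and 110 CPM. Adult members at a margin of 1 had 1090 CPM of Cav1 and 317 CPM of Kitl. Those at a margin of 6 or more had 116 and 46.0 CPM. The part of a different mix of cells in these differences between the ages was not tested. All 5 cell cycle genes that could be compared were higher at P0, among them Mki67 at 92.9 and 21.4 CPM. Without mixed cells 33 P0 cells were left, and only 2 cell cycle genes reached the minimum of counts and CPM, 1 of them higher at P0. Mki67 was no longer called, and such a loss can come from fewer counts alone. Birc5, also no longer called, was at 81.6 CPM at P0 and 21.0 CPM in the adult, and at 116 and 29.9 CPM without mixed cells. The imprinted genes Dlk1, H19, Mest and Plagl1 were among the 15 leading genes, with Dlk1 at 1041 CPM at P0 (168 CPM without mixed cells) and 2 UMIs in the adult members, and were also high in the P0 rest (Dlk1 at 2986 CPM). Of the 177 genes higher at P0, 107 (60.5%) also passed in the rest, where 7.52% of all genes did, and 122 (68.9%) in arterial-side cells, where 6.48% did.

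Immediate early and heat shock genes, which dissociation can induce, were also higher in the adult, in 7 of 10 cases in the sinusoidal-side cells and 9 of 10 in the arterial-side cells. Fos was at 2461 CPM in adult members, 2699 CPM in adult arterial-side cells and 1129 CPM in the P0 sinusoidal-side cells, where it was at 352 CPM without mixed cells. Their part in the other differences between the ages was not tested. At E18.5 and E16.5, with 24 cells each, Stab2 was at 43.3 CPM and at 0 UMIs of 329648, where a floor of 3 counts is 9.10 CPM, and no comparison across genes was made.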

How the data were processed

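Per the labels, CD45-Ter119- bone marrow cells were run with the Chromium 3′ v3.1 chemistry. The submitters' processing notes name Cell Ranger 3.1.0, R 4.0, Seurat 3.1.5 and mm10. The authors deposited raw RNA counts (UMIs, 20275 genes), raw antibody counts and cell metadata in which the mitochondrial share is a fraction. Per the methods, cells were filtered on UMIs (at least 300), mitochondrial share and an upper UMI limit against doublets, and no doublet caller was run here. The methods also state that blood cells were taken out of the stromal objects, and fewer stromal cells are held here than the paper reports. Of 18 metadata columns, 12 were not used.

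Counts were summed over the cells of a group and divided by the sum of all genes (CPM). Intervals at 95% were exact Poisson for levels, Clopper-Pearson for shares and conditional binomial for ratios. With 1 library per stage no test was run. A gene was called at 2-fold with at least 50 counts and 50 CPM in the higher group. On simulated counts for members against arterial-side cells (20275 genes, 200 changed), 100% of 3-fold and 100% of 5-fold changes were called, and 96% of intervals held the true ratio. These counts were Poisson draws without variation between cells, and only genes of at least 100 CPM were changed, by folds above the cutoff. The outcome was thus largely set by the design. It checks the arithmetic of the calls and intervals only, not variation between cells or animals. Genes named were those of 33 lists (282 of 283 genes measured) and, per comparison and direction, the 15 with the largest ratio; the comparison of SECs- with AECs-coded members was added afterwards. Members and lists were chosen with earlier results of these data known. Antibodies were compared as CLR (log of 1 plus the count over its geometric mean across adult stromal cells) and their raw counts are printed. Python 3.11.15, numpy 2.4.6, scipy 1.17.1 and pandas 2.3.3 were used.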

Additional observations from a re-analysis of the deposited data

How the results depend on the processing

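No paired analysis was possible because each stage had 1 stromal library. Of 90 recomputed values, 60 stayed near the reported ones and 30 moved, and the cause was not tested. Without mixed cells the fibroblast sum went from 6322 CPM in members and 3642 CPM on the arterial side to 110 and 147 CPM. Between SECs- and AECs-coded members the fibroblast and mesenchymal sums also changed order, at levels kept low by the definition of mixed cells. Of the osteolineage genes, 0 were called higher and 2 lower in SECs-coded members, and without mixed cells 1 higher (Spp1) and 0 lower. Against the arterial side they went from 1 higher and 4 lower to 1 and 1. The members' share of adult stroma (4.20%) was 3.22% with Stab1 out of the rule, 3.14% at a margin of 2, and 17.5% without mixed cells, whose removal takes most of the rest; the share coded SECs became 79.2% and 83.8% in the first 2. Genes higher and lower than the arterial side (229 and 162) were 361 and 262 with the deposited clusters, 1066 and 542 with 10 counts and no CPM minimum, and 105 and 72 at 3-fold; the lower count was 270 at a margin of 2 and 267 with SECs-coded members only. Genes higher than the rest (921) were 1634 without mixed cells, 2370 at 10 counts and 546 at 3-fold. Genes higher and lower in the adult than at P0 (712 and 177) were 2496 and 509 at 10 counts and 308 and 79 at 3-fold, and the lower count was 311 with mitochondrial and ribosomal genes out of the total. The summed sinusoidal list (2610 CPM in members) was 2546 with 1 UMI of Cdh5 and Pecam1, 2705 without Stab1, 2845 at a margin of 2, 3369 without mixed cells, 3135 with the deposited clusters, 3107 with the other total, 3122 as a mean per cell and 3104 in SECs-coded members. The Sca-1 median of members minus arterial side was -0.19 as CLR and -15.5 in raw counts. The settings with SECs-coded members only, without Ccl21a-rich cells, and without mixed cells for the SECs-AECs comparison and the counts of listed genes were chosen after seeing the data. P0 had 38, 28 and 33 cells without Stab1, at a margin of 2 and without mixed cells.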
